A study of Mus musculus with 2 samples.

Results

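The 10 genes described here encode receptors, or chains of receptors, through which myeloid cytokines act on blood cells. They were found by gene symbol in the deposited tables, where each of the 10 names matched 1 of 34745 genes. They are Csf2ra, Il3ra, Il5ra, Csf2rb, Csf2rb2, Csf3r, Csf1r, Il6ra, Il6st and Il1rl1. RNA came from bone marrow LSKs, cells without lineage markers but with Sca1 and c-Kit, which hold hematopoietic stem and progenitor cells, of Scl/tTA-BA mice of the C57BL/6 strain. These mice carry BCR/ABL1 (BA) under a tetracycline-controlled promoter and the transactivator tTA under control of Scl, a gene of stem and progenitor cells. Doxycycline in the drinking water keeps BA silent, so the week-0 library is from double transgenic mice on doxycycline, and the week-3 library from mice of the same genotype 3 weeks after doxycycline was withdrawn. For each time point, LSKs of 3 mice were pooled into 1 library, and the age and sex of the mice are not given in the sources used here.

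Cytokine receptors have no enzyme of their own in most cases and signal through kinases bound to their inner tail. The receptors for GM-CSF, IL-3 and IL-5 pair a specific alpha chain with a shared beta chain, Csf2rb, which activates Jak2 and Stat5. Mice have an additional beta chain, Csf2rb2, that serves IL-3 alone. Il6ra binds IL-6 and signals through Il6st (gp130), Csf3r is the G-CSF receptor of the granulocyte lineage, Csf1r is a receptor tyrosine kinase for CSF-1 and IL-34, and Il1rl1 (ST2) is the IL-33 receptor of mast cells and type 2 lymphoid cells. BA is known to activate Stat5 and to free IL-3-dependent cell lines from their need for IL-3.

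Reads on genes numbered 6356164 at week-0 and 3886695 at week-3. With 1 library per time point, variation among mice was not measured, and the differences below are between single libraries, without a replicate check. The fold change is the FPKM (fragments per length of exon and per depth of the library) at week-3 over that at week-0, and its 95% interval is an exact Clopper-Pearson interval from the reads of both libraries. These intervals leave out all but counting error, and reads copied by amplification do not each stand for a molecule. Both sorting markers were present, Kit with an FPKM of 16.9 at week-0 against 11.5 at week-3, and Ly6a (Sca1) with 19.8 and 14.8. The 11 LSK markers were above 0 reads in both libraries, with a median log2 fold change of -0.75. Reads on mouse Bcr (371 and 108) and Abl1 (395 and 144) do not check the transgene, whose reads were not counted on a row of their own. In RNA of sorted cells, fewer cells of a type and less RNA per cell cannot be told apart.

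Csf2rb, Csf2rb2 and Il1rl1 were at least 2 times as high at week-3, and Il5ra was at most 0.5 times as high. Among the 13689 genes with at least 10 reads over both libraries, 11.9% were at least 2 times as high at week-3 and 17.9% were at most 0.5 times as high. For the 10 receptors, 3 and 1 lay beyond these limits, and 6 lay between them. All 10 had at least 10 reads. Their median log2 fold change was 0.62, and that of all 13689 genes was 0.05. The counting interval lay above 0 on the log2 scale for 6 receptors (Il1rl1, Csf2rb, Csf2rb2, Csf1r, Il3ra and Csf2ra), below 0 for 3 (Il6ra, Csf3r and Il6st), and spanned 0 for Il5ra. The share of all genes whose interval left out 0 is not given here, so these counts do not set the receptors apart. With both the fold limit and the interval required, 3 receptors were higher and 0 lower, beside 10.5% and 14.9% of all tested genes. Summed over the 10 genes, the level was 415 RPM (reads scaled to an equal library total) at week-0 and 591 RPM at week-3. Most of this difference lay in Csf2rb, with 46.9 RPM at week-0 and 171 RPM at week-3.

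**Figure D1:**
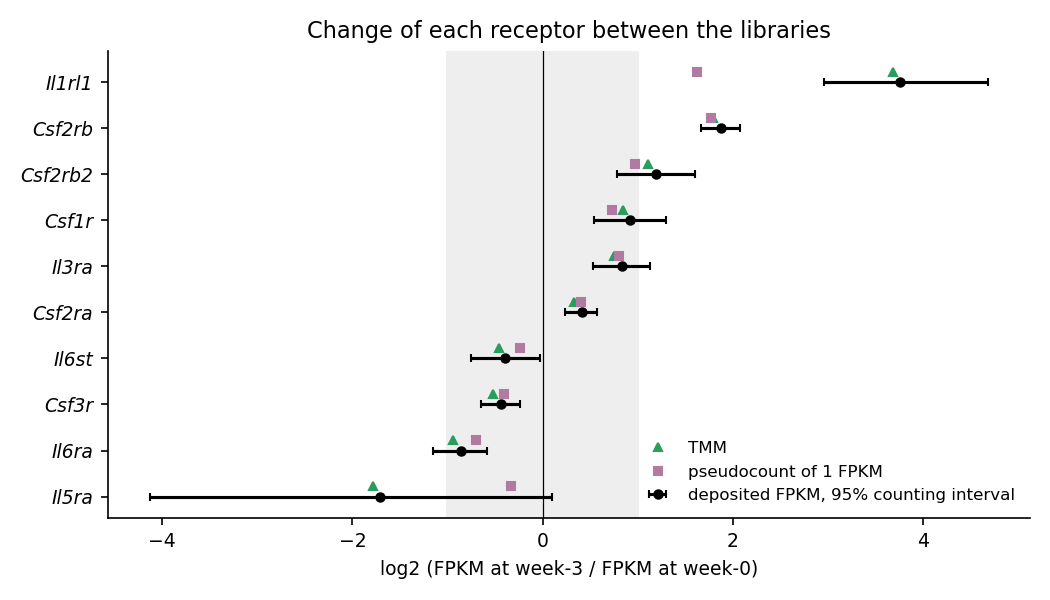
Log2 fold change of each receptor between the libraries (x axis, week-3 over week-0), with dots for the deposited FPKM, bars for the 95% counting interval, triangles for TMM scaling and squares for a pseudocount of 1 FPKM. The grey band covers changes of less than 2 times, and Il1rl1 (3.76) and Csf2rb (1.87) lie farthest to its right, whereas the interval of Il5ra runs across 0.

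The receptor with the highest level in both libraries was Csf2ra, the alpha chain of the GM-CSF receptor, and the lowest were Il1rl1 at week-0 and Il5ra at week-3. In the week-0 library, Csf2ra had a higher FPKM than 93.5% of the 13689 genes, followed by Il3ra, Csf3r, Csf2rb and Il6ra. Il3ra (20.5) and Csf3r (18.4) did not differ beyond their counting intervals at week-0, nor did Csf2rb2 (2.97) and Csf1r (2.95), nor Il5ra and Il1rl1. At week-3, Csf2rb had moved to the third place, next to Il3ra, and their intervals overlapped, from 33.2 to 38.8 for Csf2rb and from 31.6 to 42 for Il3ra. Il1rl1 was above Il6st at week-3 (2.7 against 1.39) and far below it at week-0 (0.199 against 1.82). This order depends on the length by which reads were divided. The lengths implied by the deposited values were 3.28 times the longest coding transcript of GENCODE M21 for Il6ra, 2.09 times for Il1rl1 and 2.02 times for Il6st, but 0.602 times for Il3ra. With reads divided by the length of that transcript, the FPKM at week-0 was 19.2 for Il6ra in place of 5.86 and 12.3 for Il3ra in place of 20.5, so that Il6ra stood above Il3ra. Fold changes between the libraries do not depend on this length.

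**Figure D2:**
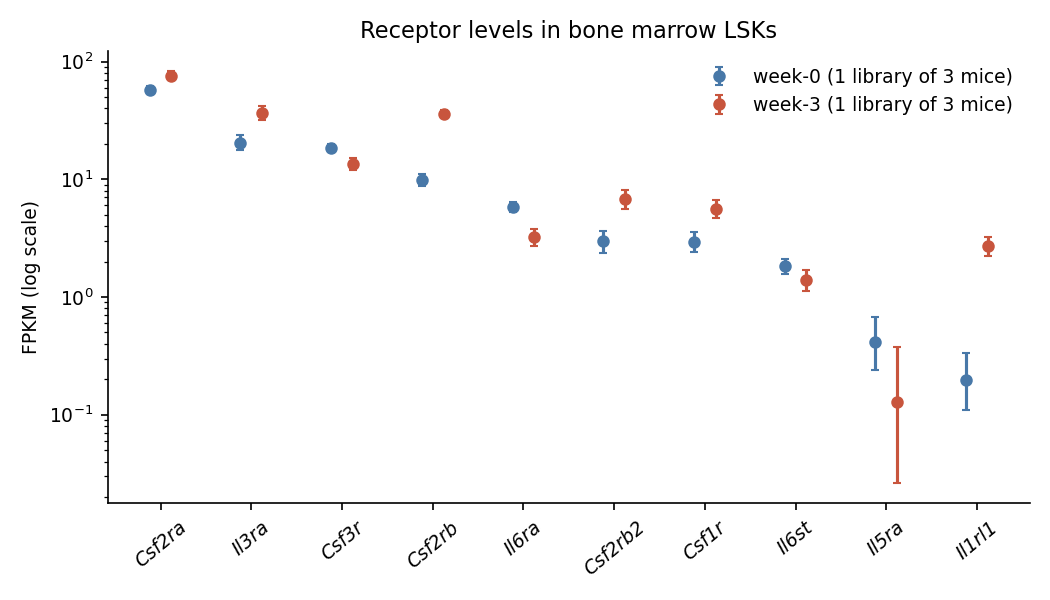
FPKM of each receptor (y axis, log scale) in the week-0 library (blue) and the week-3 library (red), ordered by the week-0 level, with 95% counting intervals as bars. Csf2ra is highest in both libraries (57.3 and 76), and Csf2rb and Il1rl1 show the widest gap upwards.

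Csf2rb (ENSMUSG00000071713, chromosome 15 of GRCm38, from 78325990 to 78351000) encodes the beta chain shared by the GM-CSF, IL-3 and IL-5 receptors. Its FPKM was 9.84 at week-0, from 298 reads, against 35.9 at week-3, from 665 reads. The week-3 level was 3.65 times the week-0 level (95% interval 3.18 to 4.2), and 3.54% of all tested genes had a larger fold change. Csf2rb2 (ENSMUSG00000071714, chromosome 15, from 78282517 to 78305603) lies beside it and encodes the beta chain used by IL-3 alone. Its FPKM was 2.97 at week-0, from 87 reads, and 6.75 at week-3, from 121 reads, which is 2.27 times as high (interval 1.71 to 3.03). Both beta chains were thus higher in the week-3 library, Csf2rb by more than Csf2rb2. The FPKM of Csf2rb2 was 0.302 times that of Csf2rb at week-0 (interval 0.235 to 0.384) and 0.188 times at week-3 (0.154 to 0.228), and the ratio at week-3 was 0.623 times that at week-0 (interval 0.453 to 0.859).

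Some reads can match both of these neighbours, because their coding sequences are 95.2% identical over 2628 aligned bases. Of 4801 stretches of 100 bases, the read length, in the Csf2rb transcript, 334 (6.96%) were also found without a mismatch in Csf2rb2. With 2 mismatches allowed, 1116 stretches (23.2%) had a counterpart at the same place of Csf2rb2. How the authors assigned reads that match both genes is not given in the sources used here, so the split between Csf2rb and Csf2rb2 is uncertain, most of all for Csf2rb2, which has fewer reads. A stretch of 120 coding bases is shown in which the genes cannot be told apart, at chr15:78348577-78348696 on the plus strand for Csf2rb and chr15:78284752-78284871 on the minus strand for Csf2rb2. It is followed by the stretch of the same length, within 1 exon, with the most differences, at chr15:78338867-78338986 for Csf2rb and chr15:78294345-78294464 for Csf2rb2. Capitals mark the 16 bases that differ, and the sequences are those of GENCODE M21 transcripts on GRCm38.
Csf2rb and Csf2rb2, identical stretch: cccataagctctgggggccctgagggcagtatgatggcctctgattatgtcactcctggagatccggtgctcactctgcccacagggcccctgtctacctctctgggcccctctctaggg
Csf2rb, most different stretch: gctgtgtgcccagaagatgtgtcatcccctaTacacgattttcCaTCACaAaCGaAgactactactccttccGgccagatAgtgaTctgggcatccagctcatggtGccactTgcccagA
Csf2rb2, most different stretch: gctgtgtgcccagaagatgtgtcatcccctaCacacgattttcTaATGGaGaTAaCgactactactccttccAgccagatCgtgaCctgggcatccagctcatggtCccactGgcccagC

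**Figure D3:**
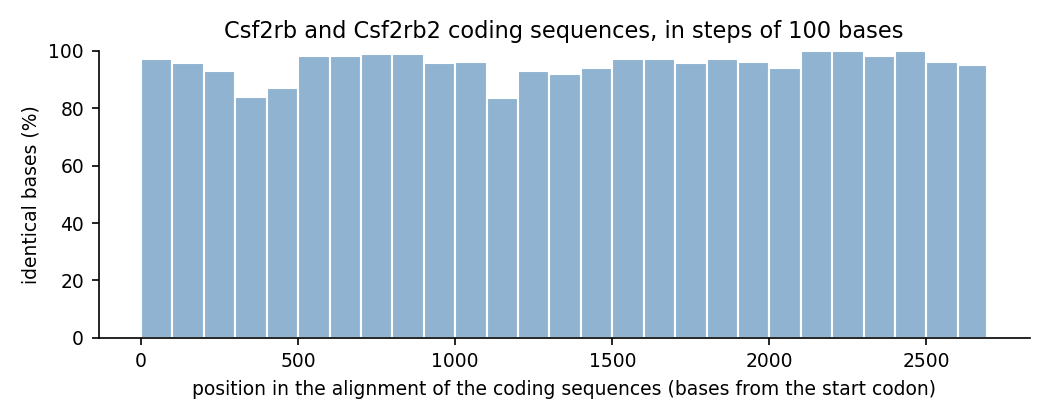
Identical bases (y axis, %) between the coding sequences of Csf2rb and Csf2rb2 in steps of 100 aligned bases (x axis, bases from the start codon). The 2 genes are above 80% identical in every step and fully identical in 3 of them, near the end of the coding sequence.

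The alpha chains of this family differed from one another. Csf2ra (ENSMUSG00000059326, chromosome 19, from 61224402 to 61228418), which binds GM-CSF, had 673 and 546 reads. Its FPKM of 57.3 at week-0 became 76 at week-3, 1.33 times as high (interval 1.18 to 1.49). Il3ra (ENSMUSG00000068758, chromosome 14, from 14346495 to 14355490), which binds IL-3, had 182 and 198 reads and went from an FPKM of 20.5 to 36.5, 1.78 times as high (interval 1.45 to 2.19). For both chains the week-3 level was higher by more than counting error, but by less than 2 times. Il5ra (ENSMUSG00000005364, chromosome 6, from 106710357 to 106749037), which binds IL-5 and is used by eosinophils and some B cells, had 16 and 3 reads in the same order. Its FPKM was 0.418 and 0.128, a ratio of 0.307, and the interval from 0.0573 to 1.07 includes no change, so a difference in Il5ra was not detectable at this depth. Of the eosinophil markers, Epx had an FPKM of 6.2 and 2.78, Prg2 of 291 and 155, and Ccr3 was at 0 reads in both libraries. Siglecf (0.519 and 1.66) and Ear2 (1.97 and 6.44, from 9 and 18 reads) were higher at week-3. Over the whole list, 2 of 6 tested genes were higher by at least 2 times and 2 were lower, with a summed FPKM of 316 at week-0 against 172 at week-3. Prg2 made up most of the sum, which was 24.2 and 16.8 without it. Their part in the reads of Il5ra was not tested.

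Because ratios of 2 genes within a library do not depend on the scaling between libraries, the alpha chains were also set against Csf2rb. Csf2ra had 5.82 times the FPKM of Csf2rb at week-0 (interval 5.07 to 6.69) and 2.12 times at week-3 (1.89 to 2.37). This ratio was 2.75-fold lower at week-3 (interval 2.3 to 3.3). Il3ra had 2.09 times the FPKM of Csf2rb at week-0 and 1.02 times at week-3, a 2.05-fold lower ratio (interval 1.6 to 2.63). The ratio of Il5ra to Csf2rb was 0.0424 at week-0 and 0.00357 at week-3, lower by 11.9-fold with a wide interval from 3.36 to 64.1. All 3 alpha chains were therefore lower relative to the shared beta chain at week-3, and the intervals of the change did not include 1. The levels of these ratios, but not their change between the libraries, depend on the exon lengths.

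**Figure D4:**
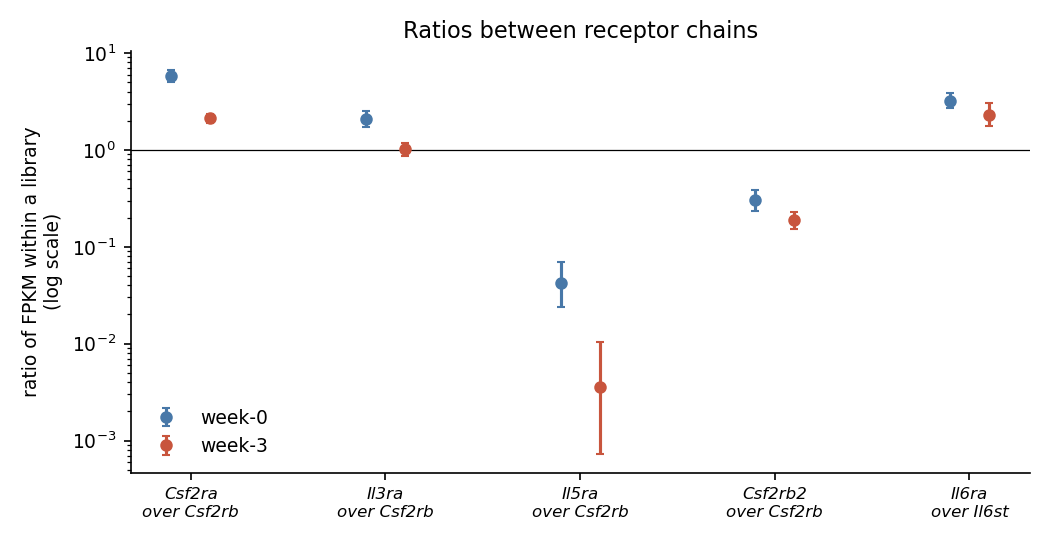
Ratio of FPKM between receptor chains within a library (y axis, log scale) at week-0 (blue) and week-3 (red), with 95% counting intervals. All 5 ratios were lower at week-3, and Il3ra was level with Csf2rb there (1.02).

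The start site of Csf2ra is shown because its level was the highest of the 10 genes. Of the forms of sites for ETS factors such as Spi1 (PU.1), only GAGGAA and its reverse complement were searched. The 250 bases before the start (RefSeq, GRCm38.p6, chr19:61228419-61228668, minus strand) held GAGGAA in 2 adjacent copies, in capitals. They begin 14 and 8 bases before the start.
Csf2ra: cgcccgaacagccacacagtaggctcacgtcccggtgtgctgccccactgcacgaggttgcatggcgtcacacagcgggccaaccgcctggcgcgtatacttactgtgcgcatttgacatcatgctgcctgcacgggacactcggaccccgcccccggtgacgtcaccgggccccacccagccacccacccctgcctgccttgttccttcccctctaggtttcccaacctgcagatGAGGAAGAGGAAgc

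GAGGAA or its reverse complement TTCCTC was found in 23.3% of 32851 such windows of mouse genes. It was found in 4 of the 9 receptor windows searched, which leave out Csf1r and Csf2rb. A match is not a binding site. Spi1 itself had an FPKM of 132 at week-0 and 135 at week-3 (log2 fold change 0.04).

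The largest fold change of the 10 receptors was that of Il1rl1 (ENSMUSG00000026069, chromosome 1, from 40429570 to 40465415), the receptor for the alarm cytokine IL-33. Its FPKM was 0.199 at week-0, from only 14 reads, against 2.7 at week-3, from 116 reads. The week-3 level was 13.5 times as high (interval 7.76 to 25.6), and 71 of the 13689 genes (0.519%) had a larger fold change. Since its week-0 level rests on 14 reads, the size of the difference is known only within that interval, and with a pseudocount of 1 FPKM the log2 fold change was 1.62 in place of 3.76. Membrane-bound and soluble forms of ST2 come from the same gene and cannot be told apart in a count per gene. Its partner chain Il1rap had 44 and 15 reads and an FPKM of 0.459 and 0.256, a log2 fold change of -0.84 whose interval from -1.79 to 0.03 includes no change. Myd88, the adaptor of this receptor, was higher by more than counting error, with an FPKM of 13 and 20.8 (1.6 times as high).

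Cells known to carry Il1rl1 were looked at through their markers. Of 11 mast cell genes, 10 were at least 2 times as high at week-3, and their summed FPKM was 78.3 at week-0 and 3100 at week-3. Cma1, a mast cell chymase, had 4 and 3361 reads, and Cpa3, a mast cell carboxypeptidase, had 524 and 4840. The tryptase Tpsb2 and the protease Mcpt4 were at 0 reads at week-0, with 5442 and 93 reads at week-3. In contrast, of 8 tested genes of innate lymphoid and T cells, 4 were at most 0.5 times as high and 2 at least 2 times as high. Rora had an FPKM of 2.13 and 0.259, Il7r of 2.06 and 0.561, and Klrg1 was at 0 reads in both libraries. The 2 higher genes, both with few reads, were Il2ra (0.159 and 0.781) and Arg1 (0.746 and 2.61). The summed FPKM of this list was 24 and 11. Basophil genes had a summed FPKM of 233 and 318, and they did not move together. Mcpt8 was at 63.7 and 156, Prss34 at 168 and 80.4, and Fcer1a, which is also in the mast cell list, at 0.102 and 77.3, and without Mcpt8 the sum was 169 and 162. The part of the mast cell genes in the levels of Il1rl1, Csf2rb and Il3ra was not tested.

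Il1rl1 has 2 start sites in RefSeq, and the 250 bases before each are shown, since its fold change was the largest. Of the forms of GATA factor sites, only AGATAA and its reverse complement TTATCT were searched. Both windows hold 1 match of these letters, in capitals. It begins 217 bases before the upstream start (GRCm38.p6, chr1:40429320-40429569, plus strand) and 103 bases before the downstream start (chr1:40439379-40439628, plus strand).
Il1rl1, upstream start: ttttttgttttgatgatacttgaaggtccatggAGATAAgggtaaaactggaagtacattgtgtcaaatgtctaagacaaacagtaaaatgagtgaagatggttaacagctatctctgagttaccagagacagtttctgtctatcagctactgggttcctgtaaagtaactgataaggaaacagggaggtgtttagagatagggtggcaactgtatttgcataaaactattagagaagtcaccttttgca
Il1rl1, downstream start: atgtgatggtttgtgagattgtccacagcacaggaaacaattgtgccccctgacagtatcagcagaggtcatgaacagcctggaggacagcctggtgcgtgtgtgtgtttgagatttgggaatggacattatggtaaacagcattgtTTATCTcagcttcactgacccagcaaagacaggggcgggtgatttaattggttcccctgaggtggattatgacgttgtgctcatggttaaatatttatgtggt

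The same letters were found in 9.99% of 32851 windows of mouse genes. They were found in 4 of the 9 receptor windows searched, those of Il5ra and Il6ra besides both of Il1rl1. The matches say nothing of binding. Gata2, a factor of stem cells and mast cells, had an FPKM of 16.6 at week-0 and 11.4 at week-3, Gata1 of 5.24 and 4.47, and Gata3 of 3.59 and 1.93.

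Both chains of the IL-6 receptor were lower at week-3. Il6ra (ENSMUSG00000027947, chromosome 3, from 89864059 to 89913196), which binds IL-6, reached an FPKM of 5.86 at week-0 (408 reads) but 3.22 at week-3 (137 reads). The level was 1.82-fold lower (interval 1.5 to 2.23), just short of the limit of 0.5 times. Il6st (ENSMUSG00000021756, chromosome 13, from 112464070 to 112510086), the signal chain shared with LIF, oncostatin M and IL-11, had 203 and 95 reads. Its FPKM was 1.82 at week-0 and 1.39 at week-3, 1.31-fold lower, with an interval from 1.02 to 1.69 that only just leaves out no change. The FPKM of Il6ra was 3.22 times that of Il6st at week-0 (interval 2.71 to 3.83) and 2.31 times at week-3 (1.76 to 3.03). The ratio was 0.718 times as high at week-3, and its interval from 0.52 to 0.993 nearly reached 1. Of the other receptor chains that pair with Il6st, Lifr had an FPKM of 0.263 and 0.237, Osmr had 3 and 0 reads, and Il11ra1 had an FPKM of 14.4 and 15.9. Il27ra, the IL-27 receptor chain that pairs with Il6st, was lower, with an FPKM of 15.3 and 5.42 (-1.49 on the log2 scale, interval -1.94 to -1.07). Il6ra overlaps the exon of an antisense gene by 242 bases, and reads of both cannot be told apart without strand.

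Csf3r (ENSMUSG00000028859, chromosome 4, from 126024550 to 126044440), the receptor for G-CSF, reached an FPKM of 18.4 at week-0 (644 reads) but 13.5 at week-3 (290 reads). It was 1.36-fold lower at week-3 (interval 1.18 to 1.57), and 30.9% of the tested genes had a smaller fold change. Neutrophil genes in the same libraries went the other way. Of 13 neutrophil markers, 11 were at least 2 times as high at week-3 and none was at most 0.5 times as high, with a summed FPKM of 2030 and 11000. Elane, a neutrophil granule protease, had an FPKM of 933 and 5140, and S100a8 of 83 and 298. Whether the proportion of granulocyte progenitors bears on Csf3r was not tested. The 250 bases before its RefSeq start (GRCm38.p6, chr4:126024409-126024658, plus strand) held GAGGAA, in capitals, 86 bases before that start. The gene start given above, 126024550, lies inside this window and upstream of the match, so the annotations differ on whether the match precedes the gene.
Csf3r: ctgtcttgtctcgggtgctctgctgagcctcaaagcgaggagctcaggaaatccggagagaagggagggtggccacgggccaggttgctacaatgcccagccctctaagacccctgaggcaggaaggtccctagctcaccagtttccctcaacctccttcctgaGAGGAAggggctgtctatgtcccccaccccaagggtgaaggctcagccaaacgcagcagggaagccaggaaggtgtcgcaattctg

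Csf1r (ENSMUSG00000024621, chromosome 18, from 61105572 to 61132149), the receptor of the monocyte and macrophage lineage, reached an FPKM of 2.95 at week-0 (110 reads) against 5.57 at week-3 (127 reads). The week-3 level was 1.89 times as high (interval 1.45 to 2.46), and 13.9% of the tested genes had a larger fold change. In GENCODE M21, exons of Csf1r overlap those of Hmgxb3 on the opposite strand by 873 bases. Hmgxb3 had 106 and 72 reads, and the interval of its log2 fold change (0.15) ran from -0.30 to 0.60. In the marker list of monocytes, macrophages and dendritic cells, 3 of 11 tested genes were at least 2 times as high at week-3 and 1 was at most 0.5 times as high. The chemokine receptor Ccr2 had an FPKM of 0.381 and 4.43, F13a1 of 5.25 and 26.3 and Ms4a6c of 11.1 and 35.6, while Siglech was at 0.409 and 0.0957. The summed FPKM of this list was 263 and 338, and its part in the level of Csf1r was not tested. Csf1r and Csf3r differed in direction, and the ratio of Csf1r to Csf3r, a pair chosen after its values were seen, was 0.161 at week-0 and 0.412 at week-3, or 2.56 times as high (interval 1.9 to 3.46).

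Most ligands of these receptors were at or near 0 reads in the LSKs. Csf2, Il3, Il34 and Thpo were at 0 reads in both libraries, which leaves room for up to 0.472 RPM at week-0 and 0.772 RPM at week-3 (3 reads). In the order week-0, week-3, Il5 had 0 and 1 reads, Il33 had 0 and 2, Kitl had 2 and 0, and Il11 had 3 and 2. Csf3 had 9 and 0 reads, below the minimum of 10, and was 1.83-fold lower with week-3 set at 3 reads. Csf1 had an FPKM of 1.58 and 0.906, Il6 had 15 and 16 reads, and Flt3l had 64 and 37. The ligand with the highest level was Osm, oncostatin M, with an FPKM of 24.9 at week-0 and 50.6 at week-3, 2.03 times as high. Lif had an FPKM of 2.59 and 0.463, or -2.48 on the log2 scale (interval -3.75 to -1.43). Of 5 tested ligands, 1 was at least 2 times as high and 1 was at most 0.5 times as high.

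Among 25 tested receptors of other cytokines, 4 were at least 2 times as high at week-3 and 7 at most 0.5 times as high, and their median log2 fold change was -0.40. Flt3, a receptor of early progenitors, was lower, with an FPKM of 157 and 38.9 (log2 fold change -2.02, interval -2.12 to -1.92). Il2rb had 68 and 3 reads. Higher at week-3 were Il10ra, the IL-10 receptor, with an FPKM of 0.875 and 3.24, Il15ra with 0.696 and 1.73, and Il2ra with 0.159 and 0.781, from 6 and 18 reads.

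The kinases and adaptors below the receptors came next. Of 20 signal transducers, 1 was at least 2 times as high at week-3 and 2 were at most 0.5 times as high, with a median log2 fold change of -0.40. Jak2, the kinase of the beta common chain, had an FPKM of 2.75 and 2.81, and Stat5b, a transcription factor it activates, of 23 and 9.57 (log2 fold change -1.27, interval -1.49 to -1.05). Inpp5d, a lipid phosphatase that restrains cytokine signals, had the lowest fold change of this list, at -1.56, and Irak4, a kinase of the Il1rl1 pathway, the highest, at 1.22. Jak3 was at -0.80, Myd88 at 0.68 and Cbl at 0.38. Of 9 feedback inhibitors, none was at least 2 times as high and 3 were at most 0.5 times as high. These were Sh2b3 (log2 fold change -2.42), Socs1 (-1.53) and Cish (-1.26), a Stat5 target gene. The highest were Socs2 (0.68), Ptpn1 (0.44) and Pias3, whose value of 0.33 did not differ from no change beyond counting error. Of 11 transcription factors known to act on receptor genes, 4 were at least 2 times as high and 1 at most 0.5 times as high, and their median was 0.04. Gfi1 (2.20), Cebpe (1.36), Cebpa (1.25) and Myb (1.08) were the higher ones, and Cebpb (-1.68) was the lower one. Gata3 was at -0.90 and Gata2 at -0.54.

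Of the markers of more distant lineages, none of 8 erythroid and megakaryocyte genes was at least 2 times as high at week-3 and 4 were at most 0.5 times as high, with a summed FPKM of 308 and 48.7. The hemoglobin gene Hba-a1 (268 and 6.9) carried that difference, and without it the sum was 39.6 and 41.8. Of 6 tested B cell genes, 3 were at most 0.5 times as high and none at least 2 times, with a summed FPKM of 38.2 and 28.4, or 25.9 and 28 without Cd79a. Of 5 basophil genes, 4 were at least 2 times as high and 1 was at most 0.5 times as high.

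**Figure D5:**
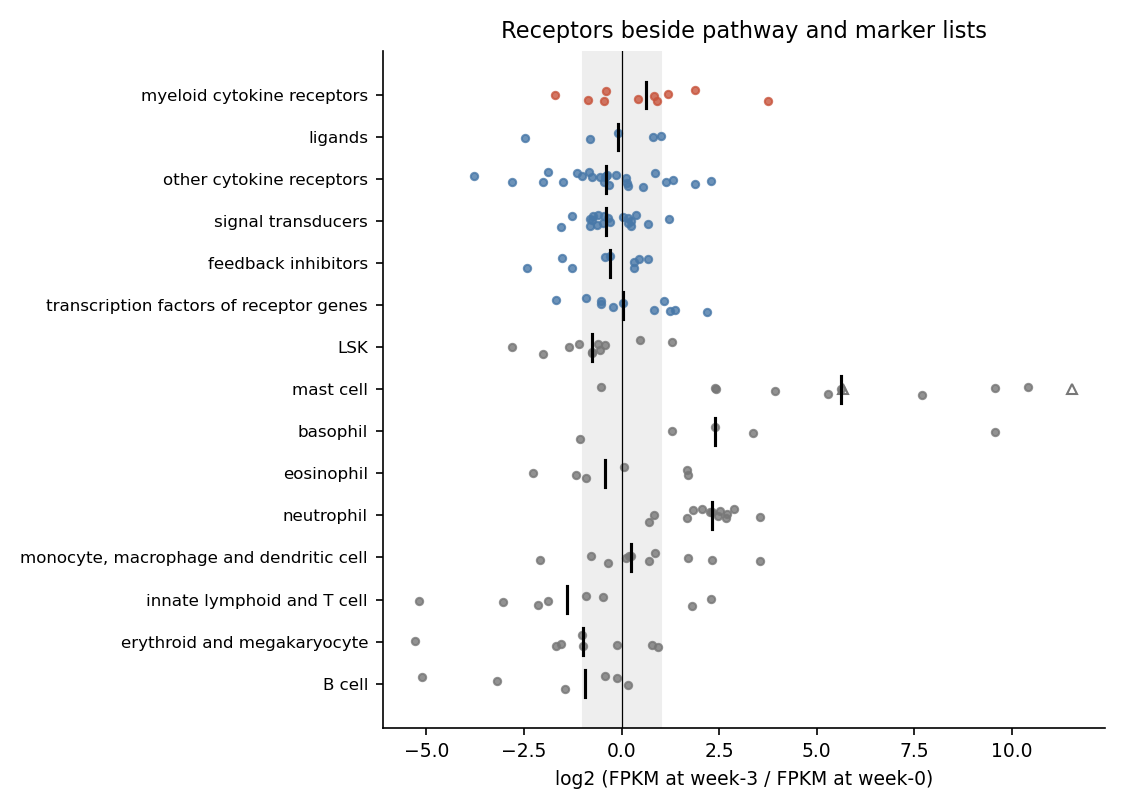
Log2 fold change between the libraries (x axis) of the 10 receptors (red), of tested genes of the pathway lists (blue) and of the marker lists (grey). Each gene has 1 dot, and a black line marks the median. Open triangles are genes at 0 reads in 1 library, placed with that library set at 3 reads. The receptors have a median of 0.62, beside -0.40 for the other cytokine receptors, and the mast cell and neutrophil lists lie to the right.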

How the data were processed

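For BM LSKs, the authors made cDNA (SMARTer Ultra Low Input kit), read 100 bases from both ends and mapped trimmed reads to GRCm38 with TopHat2 2.0.9, with 2 mismatches allowed. The deposited tables give counts, as whole reads per gene without normalization, and FPKM, which the authors scaled by exon length and total reads. The counting tool, annotation release and read assignment are not given in the sources used here. Fold changes were taken from the FPKM without a pseudocount, and a gene at 0 reads in 1 library was set to 3 reads there. Tested genes had at least 10 reads over both libraries. No p-value is given, since each time point has 1 library. As alternatives, scaling by TMM or median-of-ratios, pseudocounts, other limits, and calls by edgeR's exact test with an assumed biological coefficient of variation (BCV) were used. The FPKM by transcript length and list sums without 1 gene were added after seeing the data. On simulated counts of 13689 genes, the edgeR step recovered 193 of 200 genes changed by 4 or 0.25 times and called 4 others. These counts were drawn at the BCV of 0.1 that the test assumed. The changed genes had at least 20 expected reads at week-3 before the change. This result does not check a BCV of 0.4 or genes with few reads. The counting intervals held 96.2% of true ratios over 2000 genes of a separate simulation. It held counting error alone, as the intervals assume, so it does not check them with added variation. The receptors and lists were chosen with earlier results of these data known. All 10 receptors are named, as are the 3 highest and 3 lowest fold changes of each pathway list among genes with at least 20 reads, the ligands, and marker genes. Some genes that this rule names are not reported here. Further genes were named after their values were seen, as partners or factors of a receptor. Gene models came from GENCODE M21 and sequences from RefSeq (GRCm38.p6) and GENCODE. Start windows of 8 of the 10 receptors were searched. The RefSeq table held none for Csf2rb. For the receptors, windows on chromosome 18, where Csf1r lies, were left out, but not among the windows of all mouse genes. R 4.3.3, edgeR 4.0.16, DESeq2 1.42.0, Python 3.11.15, scipy 1.17.1 and Biopython 1.88 were used.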

Additional observations from a re-analysis of the deposited data

How the results depend on the processing

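No paired analysis was possible because each time point is 1 library, and for the same reason no library could be left out. TMM, median-of-ratios, leaving out the 10 genes with the most reads and a pseudocount of 0.1 FPKM each left 3 receptors at least 2 times as high and 1 at most 0.5 times as high, and moved no receptor's log2 fold change beyond its counting interval. Across these 4 settings, 10.5% to 12.4% of all tested genes were higher and 16% to 19.2% lower. TMM shifted every log2 fold change by -0.08 and median-of-ratios by -0.07. With a pseudocount of 1 FPKM, 2 receptors were higher and 0 lower, and Il1rl1 was at 1.62. In all, 686 genes (5.01%) were higher and 1068 (7.8%) lower, since a pseudocount draws low genes towards 0. With limits of 1.5 and 0.67, 5 receptors were higher (Csf1r and Il3ra in addition) and 2 lower (Il6ra in addition). Of all tested genes, 3362 (24.6%) were higher and 3692 (27%) lower at these limits. Without a limit on reads, 3 receptors were higher and 1 lower. Of the 19731 genes in this setting, 3863 (19.6%) were counted as higher and 2769 (14%) as lower. Setting 0 to 3 reads can place a gene found only at week-0, with fewer than 3 reads, among the higher ones. The 3863 genes therefore cannot be read as genes with a higher level at week-3. With at least 50 reads, which leaves out Il5ra, 3 receptors were higher and 0 lower. Of the 10343 genes left, 917 (8.87%) were higher and 1317 (12.7%) lower. Il5ra was also lost, leaving 0 lower receptors, when the counting interval had to exclude no change and in edgeR's exact test with a BCV of 0.1. Of all tested genes, 14.9% and 13.6% were lower in these 2 settings. With a BCV of 0.4, Il1rl1 was the 1 receptor called higher and 0 were lower, among 52 genes (0.38%) higher and 195 (1.42%) lower. Leaving out the gene with the largest FPKM difference, chosen after seeing the data, turned the log2 ratio of the summed FPKM from 0.45 to -0.06 for the basophil list, from -2.66 to 0.08 for the erythroid and megakaryocyte list and from -0.43 to 0.11 for the B cell list, and the other 6 marker lists kept their direction. Depth limits Il5ra, Il1rl1 and the ligands most.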

Other observations

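The GO annotation in the deposited tables gives the term cytokine receptor activity to 92 genes, 9 of them among the 10 receptors (Csf1r is the exception). Of the other 83 genes, 50 had at least 10 reads over both libraries. Of these, 7 (14%) were at least 2 times as high at week-3 and 17 (34%) at most 0.5 times as high, with a median log2 fold change of -0.39, beside 0.05 for all 13689 genes. The decoy receptor Il1r2, which binds IL-1 without a signal, had 1349 reads in the week-0 library against 21 later (log2 fold change -5.30, 95% counting interval -5.99 to -4.68). Cd74, the invariant chain of MHC class II, which is also annotated as a cytokine receptor, had 2505 and 47 reads. The chemokine receptors Ccr2 and Ccr1 were higher, with log2 fold changes of 3.54 (3.02 to 4.10) and 3.52 (2.16 to 5.23). F3, tissue factor, had 55 and 1 reads. These genes, named after their values were seen, had the 3 lowest and 2 highest fold changes among the genes of the term that are not among the 10 receptors and had at least 20 reads.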
